A study of Mus musculus with 39 samples.

Results

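A set of 10 genes of the p53 pathway were followed through single intestinal cells after irradiation: Trp53 itself and 9 of its target genes, Cdkn1a, Ccng1, Mdm2, Plk2, Zmat3, Trp53inp1, Phlda3, Eda2r and Sesn2. They were chosen by name, as genes of cell-cycle arrest and of feedback on p53, and all 10 were found among the 25219 genes of the deposited table. The 39 cells came from animals of the line Lgr5-EGFP-Ires-CreERT2:Rosa-lsl-tdTomato, in which tamoxifen lets Cre expressed from the Lgr5 locus switch on tdTomato in crypt base stem cells and, from then on, in all their progeny. Tamoxifen was given 24 h before 10 Gy total body irradiation (TBI), and tdTomato+ Sca1- crypt epithelial cells were sorted 48 h after TBI, captured singly and sequenced. All 39 cells shared this genotype and treatment, no unirradiated cells were part of the data used here, and no label names the animal of a cell. Levels can therefore not be read as a response to radiation, the cells count as 1 biological sample, every spread is over cells, and no p-value is given.

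The transcription factor p53 is held at a low level by the ubiquitin ligase Mdm2 and is stabilised after DNA damage, mostly without a change in its own mRNA. It then binds DNA as a tetramer at paired copies of a short sequence, the half-site, and raises transcription of genes that stop the cell cycle, repair DNA, kill the cell or restrain p53 itself. In the intestinal crypt, p53 and its target p21 (the product of Cdkn1a) are known for their roles in arrest and survival after irradiation.

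Between 398418 and 3903971 estimated counts fell on genes in a cell (median 3089188), and 2287 to 5779 genes were at 1 FPKM or more. FPKM is the number of fragments divided by transcript length and by the total of the cell, so levels can be set side by side between genes. A gene is called detected in a cell at 1 FPKM, and differences are on the log2(FPKM + 1) scale, which understates the change of low genes. By an intestinal stem cell (ISC) signature, of which 98 genes were found in the deposited table, the study grouped the cells into Cluster 1 and Cluster 2. Their labels, read from the printed heat map, cover 22 and 15 cells, and cells 9 and 79 were not found there. The epithelial markers Epcam, Krt8 and Krt18 were detected in all 39 cells, the immune markers Ptprc, Cd3e and Cd52 in 0 (which allows a share of up to 7.69%, taken here and below as 3 cells of the total and limiting detection only), the fourth immune marker, Lyz2, in 1, and Lgr5 itself in 8. Ly6a, which encodes the Sca1 antigen used to exclude cells in the sort, was detected in 4 cells (cells 2, 5, 34 and 43, at 1.26 to 509 FPKM), all in Cluster 2, so the main values that rest on Cluster 2 are also given without them.

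Both the most widely detected target, Cdkn1a, and the third member in that order, Ccng1, carry a close match to a p53 binding sequence just upstream of the gene, and these stretches are shown because Cdkn1a and Ccng1 are among the genes on which the later results turn. Of the 10 genes, 8 had an entry among RefSeq promoter windows of mouse GRCm38.p6 (250 bases before to 50 bases after a start). Each of 32851 such windows was searched for the p53 consensus half-site, a sequence of 10 letters that reads the same on both strands, and for 2 half-sites in direct succession (20 letters). A pair with at most 1 mismatch was found in 29 windows (0.0883%), among them that of Ccng1 and 1 of Cdkn1a, which had a further window at another start. In Cdkn1a the match began 51 bases before the start (chr17:29090928-29090947, plus strand), and in Ccng1 it began 195 bases before it (chr11:40755462-40755481, minus strand). At least 1 exact half-site was present in 8.36% of windows and in 4 of the 9 windows of these genes. These were the windows of Ccng1, Mdm2 and Trp53 and the Cdkn1a window with the match. The 250 bases upstream are chr17:29090729-29090978 (plus strand) for Cdkn1a, chr11:40755287-40755536 (minus strand) for Ccng1 and chr10:117710759-117711008 (minus strand) for Mdm2. They are printed from 5′ to 3′, with capitals for the pair of half-sites in Cdkn1a and Ccng1 and for the single exact half-site in Mdm2, whose well-known p53 response elements lie elsewhere, in the first intron.
Cdkn1a: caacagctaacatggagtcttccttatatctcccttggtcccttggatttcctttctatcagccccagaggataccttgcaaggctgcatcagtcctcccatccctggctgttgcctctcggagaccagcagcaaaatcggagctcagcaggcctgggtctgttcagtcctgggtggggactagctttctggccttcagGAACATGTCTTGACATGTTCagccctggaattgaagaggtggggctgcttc
Ccng1: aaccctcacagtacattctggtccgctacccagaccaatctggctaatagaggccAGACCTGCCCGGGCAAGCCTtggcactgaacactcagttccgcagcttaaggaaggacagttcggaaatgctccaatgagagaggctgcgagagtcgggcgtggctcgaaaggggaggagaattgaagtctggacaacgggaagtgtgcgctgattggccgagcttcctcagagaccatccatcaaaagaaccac
Mdm2: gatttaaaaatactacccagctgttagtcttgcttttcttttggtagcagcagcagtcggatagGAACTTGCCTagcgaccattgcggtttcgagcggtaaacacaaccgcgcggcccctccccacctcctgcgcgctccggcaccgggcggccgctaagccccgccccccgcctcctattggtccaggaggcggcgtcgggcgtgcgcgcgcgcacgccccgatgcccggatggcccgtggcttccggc
For Trp53 the best pair had 3 mismatches (6.29% of windows had as few or fewer) and began 75 bases before the start (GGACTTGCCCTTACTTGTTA, chr11:69580284-69580303, plus strand). The best pairs in the windows of Phlda3, Sesn2, Plk2, Mdm2 and Eda2r had 5 or 6 mismatches. In the further window of Cdkn1a (chr17:29093519-29093818, plus strand) the best pair had 5, with 0 exact half-sites. These matches describe letters, not occupied sites, and a p53 site outside the window would not be seen.

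Trp53 mRNA was the most widely detected of the 10 and the highest by mean and median FPKM, though not by the highest value in a cell. It was detected in 35 of 39 cells (89.7%, exact 95% interval 75.8 to 97.1%), with a median of 278 FPKM, a highest value of 629 FPKM in cell 51, and a mean of 254 FPKM ± 173 (SD over 39 cells). Here and below, such intervals cover only counting error. The 4 cells below 1 FPKM stood apart from the rest, because the lowest detected value was 25.8 FPKM. They were cells 72 and 29, with 0.521 and 0.362 FPKM, and the 2 cells outside the heat map, cells 9 and 79. Trp53 also had the lowest coefficient of variation of FPKM, 0.680 against 1.36 to 5.22 for its 9 targets. On the log2(FPKM + 1) scale, the SDs of the targets ran from 0.99 (Sesn2) to 3.07 (Ccng1), and Trp53 had 2.47. Its gene lies at chr11:69580359-69591873 on the plus strand, and its processed pseudogene is not a row of the table, so reads of the pseudogene could have been counted here.

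Among the arrest genes, Cdkn1a was present in most cells but over a wide range. It encodes p21, which inhibits cyclin-dependent kinases and binds PCNA, and lies at chr17:29090986-29100722 on the plus strand. It was detected in 29 of 39 cells (74.4%, 57.9 to 87.0%), at a median of 26.1 FPKM over all cells. The highest values were 384 FPKM in cell 94 and 326 FPKM in cell 51, and 11 cells reached 100 FPKM. At the other end it was listed at 0 in 6 cells and lay between 0 and 1 FPKM in 4 more. A value of 1 FPKM stood for a median of 6.87 estimated counts of this gene, and 28 cells had at least 10 counts of it.

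Ccng1 and Plk2 were the other arrest-related genes found in more than 50% of cells. Ccng1, which encodes cyclin G1, a p53 target that also feeds back on p53 through a phosphatase acting on Mdm2, was detected in 27 cells (69.2%, 52.4 to 83%), with a median of 40.8 FPKM and a highest value of 775 FPKM in cell 5 (chr11:40748552-40755286, minus strand). Plk2, which encodes a Polo-like kinase of the centriole cycle and the stress response, was detected in 23 cells (59.0%, 42.1 to 74.4%), with a median of 3.58 FPKM and a highest value of 365 FPKM in cell 66 (chr13:110395044-110400843, plus strand). The median of Ccng1 lay above that of Cdkn1a although fewer cells had it, and the spread over cells, a SD of 153 FPKM around a mean of 86.4 FPKM for Ccng1 and 104 around 76.2 for Cdkn1a, exceeded the distance between both.

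Of the feedback genes, Mdm2 was detected in 20 cells (51.3%, 34.8 to 67.6%) and 1 cell dominated its sum. Its median was 1.10 FPKM, and cell 51, which also had the highest Trp53, held 607 FPKM or 40.0% of the Mdm2 summed over all cells (chr10:117688875-117710758, minus strand). The next highest cell, cell 16, had 128 FPKM. Zmat3, which encodes an RNA-binding zinc finger protein induced by p53, was detected in 17 cells (43.6%, 27.8 to 60.4%) and stayed low, with a median of 0.162 FPKM and a highest value of 49.8 FPKM in cell 16 (chr3:32334794-32365665, minus strand). In 13 further cells Zmat3 lay between 0 and 1 FPKM, and because its transcript is long, 1 FPKM stood for a median of 28.6 estimated counts of Zmat3, against 5.50 for Phlda3.

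The remaining 4 genes were found in a minority of cells, with a median of 0 FPKM each. Trp53inp1, a p53-induced nuclear protein that acts in cell death and autophagy, was detected in 11 cells (28.2%, 15 to 44.9%), with 195 FPKM in cell 48 and 139 FPKM in cell 92 (chr4:11156441-11174377, plus strand). Phlda3, a p53-induced repressor of Akt signalling, was detected in 10 cells (25.6%, 13 to 42.1%) and reached 52.3 FPKM in cell 93 (chr1:135766085-135769134, plus strand). Eda2r, a receptor of the tumour necrosis factor receptor family, was also detected in 10 cells and reached 173 FPKM in cell 66 (chrX:97333841-97377209, minus strand). Sesn2, a sestrin that restrains growth signalling through mTORC1 under stress, was detected in 5 cells (12.8%, 4.30 to 27.4%), and cell 66 alone, at 44.0 FPKM, held 83.5% of its sum (chr4:132492807-132510456, minus strand). Cell 66 was thus the highest cell for Plk2, Eda2r and Sesn2. In RefSeq, Zmat3 overlaps the RNA gene 4930429B21Rik and Eda2r overlaps the pseudogene Gm18111, and no source used here says that counting used the strand, so reads of these partners cannot be told apart.

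In all, 5 of the 10 genes were at 1 FPKM or more in at least 50% of cells, against 37.4% of the 9804 genes whose mean over all cells reached 1 FPKM. The shares put the genes in the order Trp53, Cdkn1a, Ccng1, Plk2, Mdm2, Zmat3, Trp53inp1, and then Phlda3 and Eda2r together before Sesn2. For each pair of neighbours in this order the exact 95% intervals overlapped. Both shares come from the same 39 cells, so this overlap does not show whether neighbours differ. Leaving out the 4 cells with Ly6a, the cells not shown or the cells with under 1500000 counts brought Mdm2 below 50% and the number of genes to 4 in each case.

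**Figure D1:**
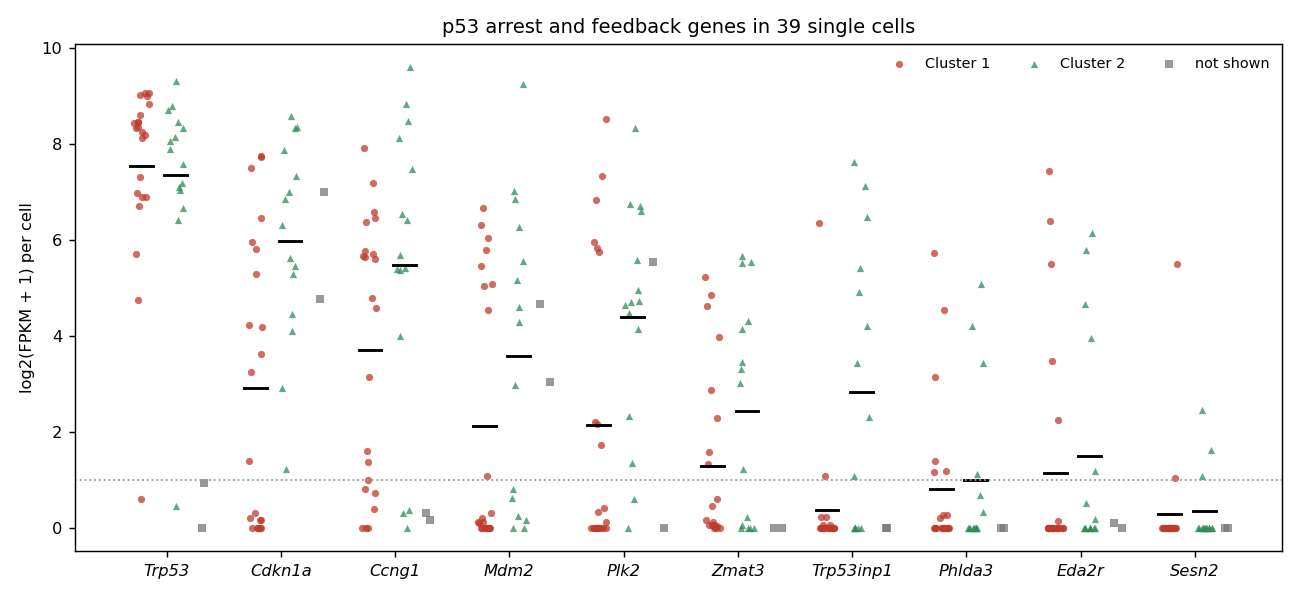
Level of each of the 10 genes, as log2(FPKM + 1) on the vertical axis, in each of 39 cells, by cluster; bars are means over the cells of a cluster, squares are cells 9 and 79, and the dotted line is 1 FPKM. All 15 Cluster 2 cells lie above the line for Cdkn1a against 12 of 22 Cluster 1 cells, while Trp53 is high in both.

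Cells differed in how many of these genes they held at once. The median cell had 4 of the 10 genes, with a range of 1 to 10, and 17 of 39 cells had 5 or more. Cells 48 and 94, both of Cluster 2, held all 10. At the low end, cells 54 and 95 of Cluster 1 had Trp53 but 0 of the 9 targets at 1 FPKM. The number of targets in a cell was set beside how much of the transcriptome was seen in it. Over 39 cells its Pearson r was 0.13 with the number of genes detected (Spearman rho 0.08) and 0.00 with the counts on genes. With the number of genes detected, r was 0.10 within Cluster 1 and 0.32 within Cluster 2. The cells differ in depth and no label names the preparation of a cell, so such values are descriptions.

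**Figure D2:**
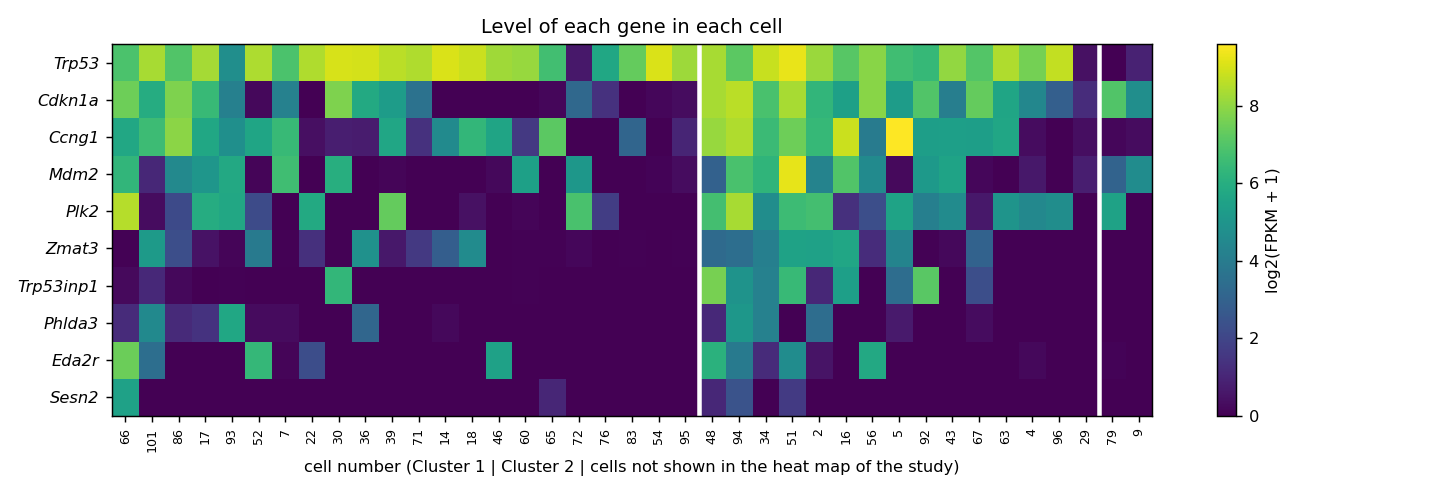
Level of the 10 genes (lines) in each cell (columns, by cell number) as log2(FPKM + 1), with cells ordered within Cluster 1, Cluster 2 and the cells not shown by the number of genes detected. Trp53 is bright in nearly every column, while the columns with many of the 9 targets, cells 48 and 94 foremost, are mostly in Cluster 2.

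**Figure D3:**
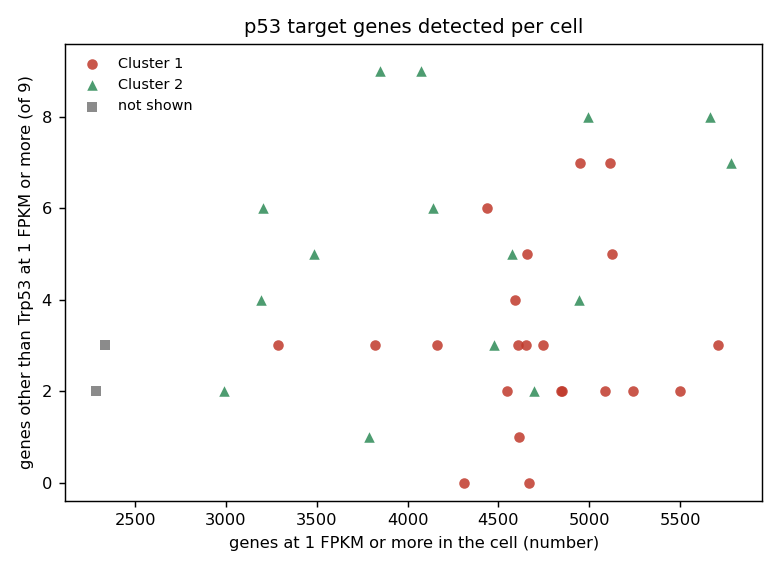
Number of the 9 targets at 1 FPKM or more (vertical axis) against the number of all genes at 1 FPKM or more (horizontal axis), 1 point per cell. Cells with 9 targets have fewer genes detected than many cells with 2, and r over 39 cells is 0.13.

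The 9 targets varied together over cells, more than Trp53 mRNA did with them. All 36 pairs among the 9 targets had a positive Pearson r of log2(FPKM + 1) over 39 cells, with a median of 0.30 and a range of 0.02 to 0.59, and 18 pairs reached 0.3. Over all pairs of those 9804 genes, the median r was 0.02 and 6.16% of pairs reached 0.3. The 9 pairs with Trp53 had a median r of 0.08, from -0.13 with Mdm2 to 0.35 with Zmat3. Trp53 itself had r = 0.51 with the number of genes detected and Cdkn1a had r = -0.27, and the part of this in the relations with Trp53 was not tested beyond a partial correlation, which gave a median of 0.15.

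Cdkn1a and Mdm2 formed the closest link among the widely detected genes, with r = 0.58. Both were detected in 19 cells, Cdkn1a alone in 10, Mdm2 alone in 1 and neither in 9. The relation was 0.59 within Cluster 1 and 0.52 within Cluster 2. Cdkn1a was also detected in each of the 11 cells with Trp53inp1 (r = 0.56), in each of the 10 cells with Phlda3 (r = 0.37) and in 21 of the 23 cells with Plk2 (r = 0.51). Ccng1 was closest to Zmat3 (r = 0.56, both in 15 cells), with r = 0.75 within Cluster 2 but 0.25 within Cluster 1. The highest single value, 0.59 between Eda2r and Sesn2, rested on 4 cells with both genes, cell 66 among them.

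**Figure D4:**
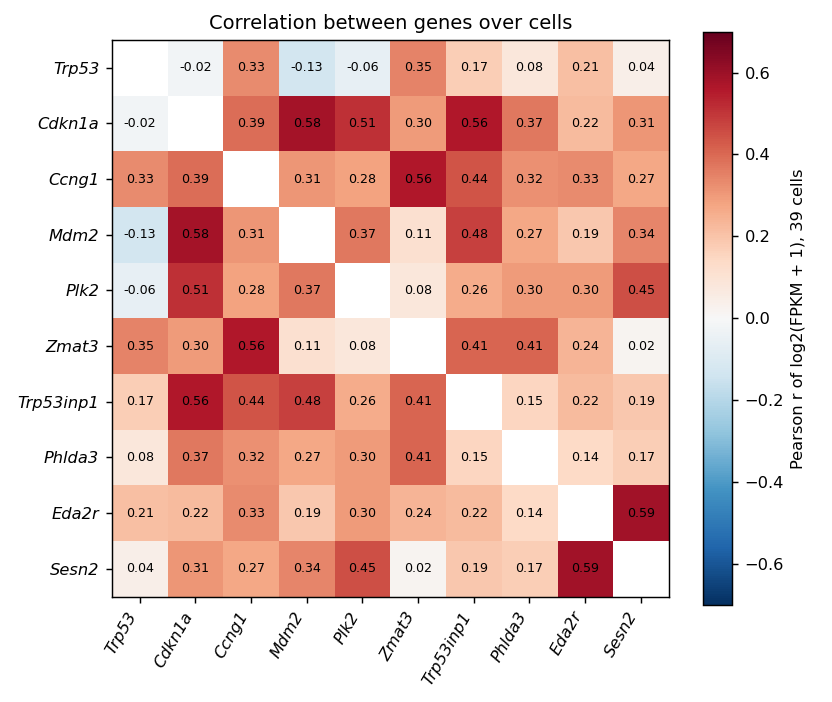
Pearson r of log2(FPKM + 1) between each pair of the 10 genes over 39 cells (colour and printed value). The 36 pairs among the 9 targets are all positive, with 0.58 for Cdkn1a and Mdm2, and the line of Trp53 stays between -0.13 and 0.35.

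The relations were also computed within each cluster. The 36 pairs of targets had a median r of 0.46 over the 15 cells of Cluster 2, all positive (0.20 to 0.75). Over the 22 cells of Cluster 1 the median was 0.20, and 27 were positive (-0.37 to 0.59). The 9 pairs with Trp53 had a median of 0.29 in Cluster 2 and -0.08 in Cluster 1. For Trp53 with Cdkn1a this was 0.56 and -0.08. Trp53 in Cluster 2 is below 1 FPKM in cell 29 only, a cell with 1.34 FPKM of Cdkn1a and none of the other 8 targets detected, and the difference between the clusters was not tested. The relation with Trp53 in Cluster 2 rested on this cell: without it, r of Trp53 with Cdkn1a was -0.01 over 14 cells and the median over the 9 pairs was 0.07, while the 36 pairs of targets had a median of 0.44. Without the 4 cells with Ly6a, these were 0.60, 0.31 and 0.55 over 11 cells.

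**Figure D5:**
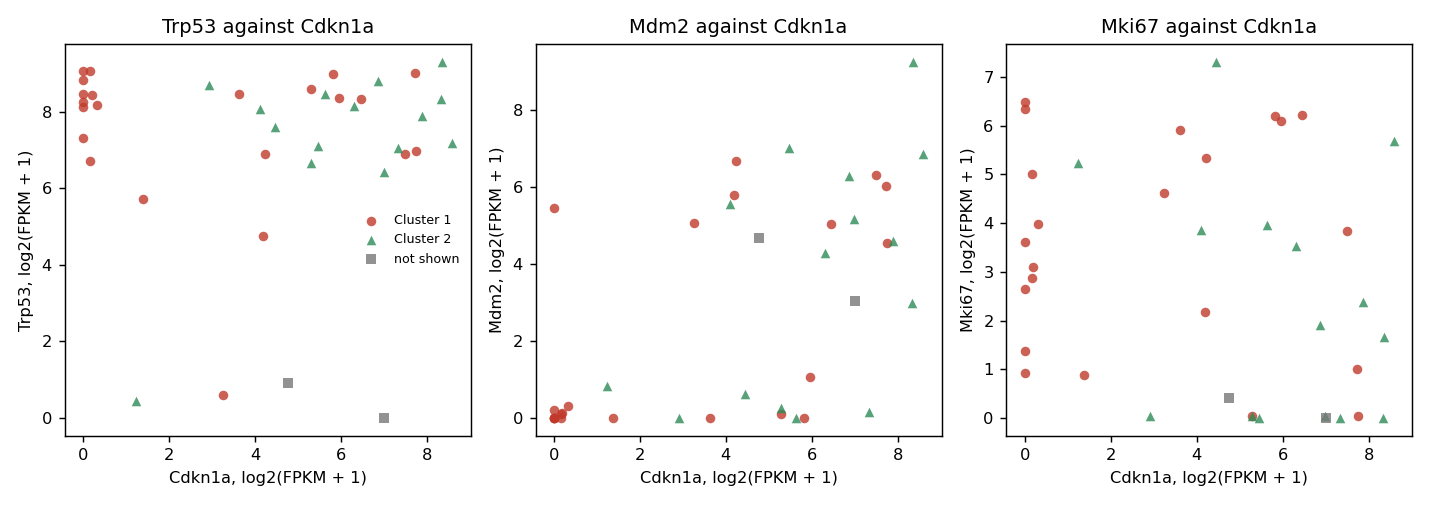
Trp53, Mdm2 and Mki67 (vertical axes) against Cdkn1a (horizontal axes), each as log2(FPKM + 1), 1 point per cell, coloured by cluster. Mdm2 is detected with Cdkn1a in 19 cells and without it in 1, Trp53 shows r = -0.02 with Cdkn1a, and Mki67 and Cdkn1a are both detected in 18 cells.

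The genes whose pattern was most like that of each widely detected member were ranked by Spearman rho over 39 cells among 3666 genes detected in at least 50% of cells. Mdm2 came first for Cdkn1a (rho = 0.57), before Lmna (lamin A, 0.53) and Cox4i1 (a subunit of cytochrome c oxidase, 0.52), and Cdkn1a came first for Mdm2, before Ces2e (0.53) and Ostf1 (0.53). Plk2 stood at rank 9 for Cdkn1a and Ccng1 at rank 23, while Trp53 stood at rank 1815. For Plk2 the nearest were Dram2 (0.53), Tob1 (0.51) and Btg1 (0.49), the last 2 encoding related antiproliferative proteins. For Ccng1 they were Xrn2 (0.63), Idh3b (0.57) and Lmna (0.57). For Trp53 they were Polr2i (0.58), Hadha (0.57) and Hmgb3 (0.56), and of the 4 targets among these 3666 genes the nearest to Trp53, Ccng1, stood at rank 2096.

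The targets were mostly higher in Cluster 2, while Trp53 was at a like level in both clusters. The mean was higher in Cluster 2 for 9 of the 10 genes, the 9 targets, against 39.5% of the 9676 genes whose mean over these 37 cells reached 1 FPKM. It was higher by at least 1 on the log2 scale for 6 genes, Cdkn1a, Trp53inp1, Plk2, Ccng1, Mdm2 and Zmat3, against 4.89% of all genes. The median difference was 1.46 over the 9 targets and -0.20 over all genes, as Cluster 2 minus Cluster 1. With the clusters formed on other genes of the same cells and no animals named, these are descriptions of 2 sets of cells.

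Cdkn1a showed the largest difference of the 10 on the log2(FPKM + 1) scale, though not by every measure. It was detected in all 15 Cluster 2 cells (100%, 78.2 to 100%), from 1.34 to 384 FPKM with a median of 78.0, and in 12 of 22 Cluster 1 cells (54.5%, 32.2 to 75.6%), from 0 to 213 FPKM with a median of 5.05. The 6 cells listed at 0 were all in Cluster 1, but 3 Cluster 1 cells exceeded 100 FPKM, so the clusters overlapped. The mean was higher in Cluster 2 by 3.07 on the log2 scale, beside a pooled SD over cells of 2.69. As the log2 ratio of mean FPKM, which the highest cells weigh on most, the difference was 1.62 for Cdkn1a and 0.55 for Plk2, below 2.93 for Trp53inp1 and 1.85 for Ccng1, and also below that of Mdm2. Before thinning it was above 0 in 16 Cluster 1 cells and all 15 Cluster 2 cells, and thinned to 600000 reads per cell it had a read in 12 and 15.

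Trp53inp1 followed, and with Cdkn1a it was the only member whose difference exceeded both 1 and the pooled SD. Of all 9676 genes, 33 (0.341%) did so towards Cluster 2 and 180 towards Cluster 1. Trp53inp1 was detected in 9 of 15 Cluster 2 cells (60%, 32.3 to 83.7%), with a median of 3.99 and a highest value of 195 FPKM. In Cluster 1 it was detected in 2 of 22 cells (9.09%, 1.12 to 29.2%), with a median of 0. The values in these 2 cells were 80.6 FPKM (cell 30) and 1.13 FPKM. The mean was higher in Cluster 2 by 2.47, beside a pooled SD of 2.12.

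The other 4 genes past 1 stayed within the spread between cells. Plk2 was detected in 13 of 15 Cluster 2 cells and in 9 of 22 Cluster 1 cells, with medians of 24.9 and 0.176 FPKM and a difference of 2.25 (pooled SD 2.77), although the highest cell, cell 66, was in Cluster 1. Together with Cdkn1a and Trp53inp1 it made 3 genes whose share of cells was at least 30 percentage points higher in Cluster 2, against 1.23% of all genes. Ccng1 was detected in 12 and 15 cells, with medians of 50.4 and 24.8 FPKM and a difference of 1.77 (pooled SD 2.91). Mdm2 was detected in 9 cells of each cluster, with medians of 18.5 and 0.127 FPKM and a difference of 1.46 (pooled SD 2.89). Zmat3 was detected in 9 and 8 cells, with a difference of 1.14 (pooled SD 2.02).

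For Eda2r, Phlda3 and Sesn2 the differences were 0.35, 0.18 and 0.05 towards Cluster 2. As the log2 ratio of mean FPKM, Sesn2 was instead 1.01 and Eda2r 0.35 higher in Cluster 1, where cell 66 held the highest value of both. Trp53 lay at medians of 235 FPKM in Cluster 2 and 309.7 in Cluster 1, with a difference of -0.20 (pooled SD 1.99), the same as the median of all genes. With cells 9 and 79 counted in Cluster 2, as a new clustering placed them, it was -1.01, and Zmat3, at 0.85, was no longer past 1, and Ccng1 was at 1.16. The median cell of Cluster 2 held 5 of the 9 targets (1 to 9), and that of Cluster 1 held 3 (0 to 7). Of the 17 cells with 5 or more of the 10 genes, 11 were in Cluster 2 and 6 in Cluster 1. Cluster 2 cells had lower depth, with a median of 2753636 counts and 4138 genes detected against 3393504 and 4663.5 in Cluster 1.

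Without the 4 Cluster 2 cells with Ly6a, the mean was higher in Cluster 2 for 8 of the 10 genes, against 34.5% of all genes, and by at least 1 for 5, against 5.39%, with Zmat3 at 0.73 and Phlda3 at -0.22. Cdkn1a was then higher by 3.20 and detected in 11 of 11 cells, and Trp53inp1 was higher by 2.71 and detected in 6 of 11. The median number of targets per Cluster 2 cell was still 5. Leaving out any 1 of the 37 cells kept the difference of Cdkn1a between 2.89 and 3.41 and that of Trp53inp1 between 2.13 and 2.76. Zmat3 fell below 1 in 3 of these 37 cases, reaching 0.91 without cell 16.

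Markers of cell types also differed between the clusters, and their part in the differences of the p53 targets was not tested. The summed level of 5 crypt base stem cell markers had a median of 1268 FPKM in Cluster 1, with a range of 142 to 3886, and a median of 161 in Cluster 2, with a range of 0.750 to 2389 (257 without the cells with Ly6a), and these markers overlap in kind with the signature that defined the clusters. Of these markers Olfm4, Ascl2, Smoc2 and Aqp4 had r of -0.36, -0.39, -0.30 and -0.41 with Cdkn1a over 39 cells, and Lgr5 had 0.01. The 4 Paneth markers summed to a median of 151 FPKM in Cluster 1 (1.31 to 1552) and 363 in Cluster 2 (28.7 to 8793, and 533 without the cells with Ly6a), with Mmp7 detected in 3 and 6 cells and Ang4 in 8 and 3. The 4 goblet markers had medians of 168 and 178 FPKM (17.1 to 4816 and 11.1 to 41069, with a Cluster 2 median of 363 without the cells with Ly6a), with Muc2 in 0 cells of Cluster 1, which allows up to 13.6%, and in 3 of Cluster 2, and with medians of Agr2 of 84.9 and 9.96 FPKM. The 4 enterocyte markers had medians of 225 and 179.7 FPKM (0.943 to 764 and 0 to 1245, with a Cluster 2 median of 104 without the cells with Ly6a), and the defining enteroendocrine markers Chga and Chgb were detected in 0 of 39 cells and Neurod1 in 1. The 3 tuft markers had a median of 0 FPKM in both clusters and reached 11 FPKM in Cluster 1 and 394 in Cluster 2.

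Other p53 targets formed a list of 24 genes of cell death, DNA repair and growth arrest. Of the 22 whose mean reached 1 FPKM, 4 were at least 1 higher in Cluster 2 (Fas, Btg2, Perp and Xpc), against 4.89% of all genes, and Aen was 1.84 higher in Cluster 1, where 14.9% of all genes were past 1. The median difference was 0.36 over the list and -0.20 over all genes, as Cluster 2 minus Cluster 1. Without the cells with Ly6a, 3 were past 1 in each direction, against 5.39% of all genes in Cluster 2 and 20.4% in Cluster 1, and Aen, 2.68 higher in Cluster 1, exceeded its pooled SD of 2.54. Over all cells of the clusters, 33 of 9676 genes passed 1 and the pooled SD in Cluster 2 and 180 in Cluster 1. From this list, only Fas, a death receptor, did so. It was detected in 6 of 15 Cluster 2 cells and in 0 of 22 Cluster 1 cells, which allows a share of up to 13.6%, with a difference of 2.54 (pooled SD 2.05). Without the cells with Ly6a it was in 3 of 11 Cluster 2 cells, with a difference of 1.85 (pooled SD 1.79). All 6 Fas cells also had Cdkn1a and Ccng1. Cdkn1a was in all 15 Cluster 2 cells and Ccng1 in 12 of them, so the overlap with Cdkn1a was given by the cluster. Ranked by mean level, the first 4 were Rps27l, a ribosomal protein paralogue detected in all 39 cells with 187 to 2688 FPKM, Perp, a desmosomal protein, in 34 cells, Bax, which permeabilises mitochondria, in 35 cells, and Btg2, an antiproliferative factor, in 21 cells. Bax had r = 0.21 with Cdkn1a (Spearman rho 0.28) and 0.47 with Trp53 (0.24).

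Regulators of p53 lay close to the genes at large. Of the 12 listed, 11 had a mean that reached 1 FPKM, of which 0 were at least 1 higher in Cluster 2 and 3 were as much higher in Cluster 1, the checkpoint kinase Chek2 by 1.54, the deubiquitinase Usp7 by 1.34 and the acetyltransferase Kat5 by 1.15, against 14.9% of all genes. Each of these stayed within its pooled SD. The median over the list was -0.23, beside -0.20 over all genes, as Cluster 2 minus Cluster 1. Rfwd2, a ubiquitin ligase of p53 also called Cop1, was 0.85 higher in Cluster 2. Without the cells with Ly6a, 0 regulators were past 1 in Cluster 2, against 5.39% of all genes, and 4 in Cluster 1, against 20.4%. Mdm4, the partner of Mdm2 in holding p53 down, was detected in 26 of 39 cells, with medians of 6.41 FPKM in Cluster 1 and 6.23 in Cluster 2, and had r = 0.12 with Cdkn1a. Rchy1, another ubiquitin ligase of p53, was detected in 25 cells.

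A list of 16 cell-cycle genes, the cyclins, kinases and replication factors on which p21 acts or that lie downstream of it and the proliferation markers Mki67 and Top2a, was also followed. They were higher in Cluster 1 for 11 of the 15 whose mean reached 1 FPKM, against 60.5% of all genes. Of these, 9 were at least 1 higher in Cluster 1, against 14.9% of all genes, and 0 in Cluster 2, against 4.89%. The median difference was 1.17, beside 0.20 over all genes, as Cluster 1 minus Cluster 2, and the counts were again 9 and 0 without the cells with Ly6a, where 20.4% and 5.39% of all genes were past 1. Ccna2 (cyclin A2) by 2.93 and Pcna, the sliding clamp of replication, by 2.29 exceeded their pooled SDs of 2.48 and 2.04. Past both 1 and the pooled SD in Cluster 1 were 180 of all 9676 genes. Ccnb1 (cyclin B1) was higher by 2.41 but within its pooled SD of 3.14. The highest genes by mean were Ccnd2 and Cdk4, each detected in 37 cells, followed by Pcna and Ccnb1.

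In single cells, Mki67 was found in 9 of the 10 cells without Cdkn1a and in 18 of the 29 cells with it. Mki67 is a marker of cycling cells, and 1 cell had neither gene. All 10 cells without Cdkn1a were in Cluster 1, where Mki67 was also in 9 of the 12 cells with Cdkn1a, and in Cluster 2 it was in 9 of 15. The r with Cdkn1a was -0.25 for Mki67, -0.36 for Ccna2, -0.29 for Ccnb1 and -0.37 for Cdk4. Within the clusters it was -0.05 and -0.26 for Mki67, -0.15 and -0.06 for Ccna2 and -0.18 and -0.42 for Cdk4, in Cluster 1 and Cluster 2. Ccnd1 (cyclin D1), detected in 35 cells, had r = 0.30 with Cdkn1a (Spearman rho 0.37), 0.57 with Ccng1 (0.53) and 0.55 with Trp53 (0.07).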

How the data were processed

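The FPKM values and estimated counts of 39 cells were used as the authors deposited them. Per the methods and labels, single cells were captured on a Fluidigm C1 chip, cDNA was made with the SMARTer kit and libraries with Nextera XT, and the values were extracted by Takara Bio. The submitters' processing notes name bcl2fastq 1.8.4, TopHat2 2.0.14 and the builds mm10 and GRCm38. The counting tool and annotation release are not given in the sources used here. The FPKM values deposited by the authors are scaled by transcript length and by a total per cell. The estimated counts deposited by the authors are not normalized, and 18.5% of those above 0 were not whole numbers as written, with no tolerance. No molecular identifiers are named, so counts are not molecules, and a transcript lost before amplification appears as 0. Capture sites were inspected under the microscope, and doublets were not called.

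Genes were matched by symbol. Tigar and Cop1 were found under the older symbols 9630033F20Rik and Rfwd2. Gene starts and ends differed from RefSeq GRCm38.p6 by at most 25 bases. Detection was 1 FPKM or more, with exact Clopper-Pearson 95% intervals. Expression was log2(FPKM + 1), with a pseudocount of 1 FPKM. A difference between clusters was set beside 1 on the log2 scale and the pooled SD over cells. Genes whose mean reached 1 FPKM gave the background. Depth was 398418 to 3903971 counts per cell, and for thinning the estimated counts were rounded and drawn down to 600000 reads, which left out 1 cell. The labels of the clusters were read from the study's printed heat map, and complete-linkage clustering on the 98 signature genes put 37 of 37 cells as read. The highest r between 2 cells was 0.64, so no library appeared to be deposited more than once. No count model was fitted and no test was made.

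The members, gene lists and markers were chosen with earlier results of these data known. Named genes were all 10 members, the 4 genes of each other list with the highest mean FPKM, any gene of these lists past 1 and the pooled SD, and the 3 genes most like each widely detected member by Spearman rho. Other listed genes named in the text, including those past 1 alone, Mki67, Ccnd1 and Rfwd2 among them, were added after their values were seen. Alternatives were other detection limits and pseudocounts, no filter or a filter at 10 FPKM, rescaled cells, a new clustering, other measures of difference and correlation, and the omission of cells. The steps were tested on simulated data. Computations ran in Python 3.11.15 with scipy 1.17.1, pandas 2.3.3 and numpy 2.4.6, and plots in matplotlib 3.10.9.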

Additional observations from a re-analysis of the deposited data

Results flagged for a closer look

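Cells 9 and 79 had no cluster in the study's heat map and so stood outside the comparison of clusters, yet both held counts of p53 targets with Trp53 below 1 FPKM. In cell 9, Cdkn1a had 63 estimated counts (26.1 FPKM) and Mdm2 had 90 (24.4 FPKM), beside 2 counts of Trp53. In cell 79, Cdkn1a had 594 estimated counts (127 FPKM), Mdm2 had 52 (7.27 FPKM) and Plk2 had 292 (45.2 FPKM), beside 0 counts of Trp53. A new clustering of all 39 cells on the signature genes put both cells with Cluster 2. The 4 enterocyte markers summed to 41006 FPKM in cell 79, against at most 1245 in a cell of either cluster, and to 286 in cell 9. In cell 79 the 3 tuft markers summed to 286 FPKM and the 5 stem cell markers to 2.42. The 4 Paneth markers summed to 3322 FPKM in cell 9 and 475 in cell 79, within the range of Cluster 2 (28.7 to 8793). The part of these cell type markers in the values was not tested. Cell 9 had the lowest depth of the 39 cells.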

How the results depend on the processing

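The values were recomputed under alternatives fixed with the design and under others added after seeing the data: a limit of 10 estimated counts, leaving out cells with under 1500000 counts, leaving out the 4 cells with Ly6a, leaving out each cell of the clusters in turn, and correcting for the number of genes detected. None of the 6 differences between clusters past 1 changed direction under these settings. Sesn2, 0.05 higher in Cluster 2, was 1.01 higher in Cluster 1 as the log2 ratio of mean FPKM. At a limit of 5 FPKM, 3 genes instead of 5 were detected in at least 50% of cells. The number of the 10 genes with a higher mean in Cluster 1 was 1 and became 3 with the log2 ratio of mean FPKM, 2 with the share of cells, 2 without the cells with Ly6a and 0 given the number of genes detected. With a pseudocount of 0.1 FPKM, 7 instead of 4 of the other p53 targets were at least 1 higher in Cluster 2, and 4 instead of 1 in Cluster 1, beside 11.3% and 27.7% of all genes at that pseudocount. The causes were not tested. Of the other values, 36 for summaries and 143 for single genes stayed within their interval or spread over cells or, for counts, within 1.5 times. With any value above 0 as the limit, the shares of cells moved outside their intervals for Trp53, Ccng1, Mdm2 and Zmat3, as did that of Trp53 after thinning and that of Sesn2 at 5 FPKM. The median over the 9 pairs with Trp53 was 0.08 as Pearson r and -0.01 as Spearman rho. Thinned to 600000 reads, Phlda3 had a read in 8 of 38 cells, against 15 of 39 before, and Sesn2 in 5, as before. With 39 cells a gene detected in 0 cells could be detectable in up to 7.69% (3 cells of the total). No paired analysis was possible because the numbers in the labels name single cells of 1 group.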

Other observations

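Relatives of these genes in the same protein families ranged from not detected to widely detected. Of 13 relatives, 7 had a mean that reached 1 FPKM in the cells with a cluster. The p53 paralogues Trp63 and Trp73 and Edar, the relative of Eda2r, were detected in 0 of 39 cells, which allows a share of up to 7.69%, and so was Cdkn2a, which encodes the Mdm2 inhibitor Arf. Cdkn1c, which encodes the p21 relative p57, was detected in 3 cells but at up to 1013 FPKM, in cell 79. Cdkn1b, which encodes p27, was detected in 31 cells, among them 19 of 22 Cluster 1 cells and 10 of 15 Cluster 2 cells, with r = -0.03 with Cdkn1a. Plk1, the mitotic relative of Plk2, was detected in 23 cells, was 1.27 higher in Cluster 1 within a pooled SD of 2.84, and had r = -0.36 with Cdkn1a, against 0.51 between Plk2 and Cdkn1a. Phlda1 was detected in 27 cells and Phlda2 in 19.

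Beyond cells 9 and 79, the cells low in Trp53 were cell 72 of Cluster 1 and cell 29 of Cluster 2. Cdkn1a was detected in each of these 4 cells. Ccng1, which was detected in 27 cells, was in none of the 4.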
